A study of Homo sapiens with 10 samples.

Results

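NF-κB is a family of dimeric transcription factors built from the subunits encoded by NFKB1, NFKB2, RELA, RELB and REL. In resting cells the dimers are held in the cytoplasm by inhibitory IκB proteins. Signals from receptors for TNF, interleukin-1 or microbial products activate an IκB kinase, the IκB is degraded, and the freed dimer enters the nucleus. Among the first genes it switches on are those for its own inhibitors, so that the pathway limits itself. In glioma the pathway is known for its links to inflammatory and mesenchymal programmes.

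The 10 genes described here were chosen by name in the table of the whole transcriptome, with earlier results of these data known. They are the subunit genes NFKB1, NFKB2 and RELB, the inhibitor and feedback genes NFKBIA, NFKBIE, NFKBIZ, TNFAIP3 and BIRC3, and the targets ICAM1 and SOD2. The table held 34567 genes, of which 17312 passed a filter on low counts, and 10 of 10 members were among them. SOD2 was the one name carried by 2 rows. The row used (ENSG00000112096, chr6:159669057-159745186) held 68576 reads over all libraries, and the overlapping row on the same strand (ENSG00000285441) held 8 and was not tested, so the split of reads between them is uncertain.

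Gene expression was measured by poly(A) RNA sequencing in SNB19 and U87, established human glioma cell lines, to ask how the level of the homeobox transcription factor MEOX2 alters the transcriptome. SNB19 cells were transfected with Scramble siRNA (3 libraries, Scramble) or with MEOX2 siRNA (3 libraries, siMEOX2), both by lipofection. U87 cells carried an empty vector lentivirus (2 libraries, EV) or a MEOX2 overexpression lentivirus (2 libraries, OE) and were made as stable lines, so that both arms had been exposed to virus and selection. Which siRNA was used, the time from transfection to RNA and the number of clones are not given in the sources used here. Both OE titles carry the same bracketed name, but their counts differed by more than sampling noise (chi-square per degree of freedom 4.45), so they were kept as 2 libraries. The siRNA knockdown is transient and the overexpression is stable, so cell line, direction of the MEOX2 change and kind of perturbation cannot be told apart between the lines. Nothing in the labels says that libraries of a group came from separate cultures, so p-values measure the spread between these libraries, which may be technical. The libraries held 12533775 to 16560324 counts.

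MEOX2 itself followed the labels. Its read count was 249, 224 and 275 in the Scramble libraries and 54, 40 and 49 in the siMEOX2 libraries. In CPM (read counts scaled to library size after TMM normalisation) this was 15.5 ± 1.16 (SD, n = 3) against 2.89 ± 0.367 (SD, n = 3), a 5.36-fold fall (log2 fold change -2.42, SE 0.14, edgeR quasi-likelihood test, Benjamini-Hochberg adjusted p = 9.1e-05). In U87 the EV libraries had 0 and 0 reads and the OE libraries 4999 and 5308. Taking 3 counts in each EV library as the floor, MEOX2 was at least 1620-fold higher in OE, at 398 ± 22.8 CPM (SD, n = 2).

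The cell lines were checked against marker lists. Of 8 glial and mesenchymal markers 7 passed the filter, and S100B was near 0 in SNB19 and at 0 in U87. TNC was the most abundant except in siMEOX2 replicate 1 and EV replicate 1, where it was VIM. The summed level of the 8 was 2209.7 to 2268 CPM in Scramble and 992 to 1021 CPM in siMEOX2, with TNC, CD44, NES, SOX2 and GFAP called lower. In U87 it was 4991 and 6827 CPM in EV and 4071 and 4334 CPM in OE, with VIM and NES called lower. VIM was 5106 and 1305 CPM in EV and 628 and 645 CPM in OE, a 5.03-fold fall (adjusted p = 0.0088, edgeR). The fall was 1.99-fold without EV replicate 1 and 7.84-fold without EV replicate 2. SOX2 was 31.5 CPM in Scramble and 0.0374 CPM in EV. Of 6 macrophage and microglial markers, PTPRC, CD68, AIF1 and CX3CR1 were at or near 0 in every group, and CSF1R was the most abundant. The summed level of the 6 was 18.8 to 21.8 CPM in Scramble and 4.81 to 7.02 CPM in siMEOX2, and 18.1 to 18.4 CPM in EV and 2.73 to 3.53 CPM in OE. The 5 endothelial markers summed to 40.1 to 44.9 CPM in Scramble and 10.2 to 12.1 CPM in siMEOX2. PECAM1 was the most abundant in SNB19, at 31.5 and 5.06 CPM on average. In U87 the sum was 11.5 to 14.5 CPM in EV and 10.8 to 11.2 CPM in OE, where KDR led. PECAM1 (6.59 to 1.69 CPM on average) and VWF (1.13 to 0.227 CPM) were called lower in U87. KDR (4.26 to 7.67 CPM) was not called. The 6 epithelial markers summed to 359 to 390.4 CPM in Scramble, 224 to 263 CPM in siMEOX2 and 4.41 to 8.56 CPM in U87, with KRT8 the most abundant in SNB19 and ESRP1 in OE. In SNB19, KRT8 and KRT19 were called lower, and CDH1 (1.04 to 3.93 CPM on average) and ESRP1 (0.227 to 0.991 CPM) higher. The part of these shifts in the results below was not tested, and a change in the share of cells of one kind cannot be told apart from a change in RNA per cell.

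The EV libraries stood apart from each other. Between the EV replicates, 34.3% of 13766 genes with a mean of at least 10 counts in EV differed by more than 2-fold, against 0.712% of the same genes between the OE replicates. The difference ran with gene length. Across 5 groups of genes of equal size from short to long, the median log2 ratio of EV replicate 1 to replicate 2 went from 0.94 through 0.32, -0.04 and -0.34 to -0.71, while the same ratio for OE stayed between -0.10 and 0.07. Members differed too, but not all with length. ICAM1, of 3706 bases, had a log2 ratio of -1.16, where its length group had a median of 0.32. NFKBIA, NFKBIE, NFKB2 and RELB, with implied lengths of 2373 to 4484 bases, were higher in replicate 1, and NFKBIZ, TNFAIP3, BIRC3, NFKB1, ICAM1 and SOD2, of 3706 to 16493 bases, were higher in replicate 2. Of the 10 members, 5 differed by more than 2-fold between the EV libraries, with NFKBIE the farthest at 3.09-fold. Replicate 1 also had the lowest TMM factor, 0.695 against 0.950 to 1.13 in the other libraries. Counts and members that rest on EV are therefore given with and without EV replicate 1. Leaving out an EV library leaves 1, whose spread is assumed to be like that of the other groups. The EV replicates were farther apart than those of the other groups, so calls against 1 EV library do not measure the spread of EV. The EV pair also enters the spread estimated in the shared fit of all 10 libraries: the number of genes called in SNB19 went from 2725 to 8626 without EV replicate 1, so SNB19 counts are given from a fit of SNB19 alone as well.

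Feedback in this pathway runs through promoters that carry the sequence bound by NF-κB itself. RefSeq promoter windows on GRCh38.p14 (250 bases before to 50 after a transcription start) were given for 8 of the 10 members, 15 windows in all; NFKBIE and RELB had none. A match to the κB consensus, searched on both strands, was present in 8 of the 15 windows, belonging to 6 members, and in 11.3% of all 35116 promoter windows. The homeodomain core TAATTA was found in 0 of the 15 windows and in 4.84% of all windows. The 250 bases before the start are printed for the feedback genes NFKBIA, NFKBIZ, TNFAIP3 and BIRC3. Feedback itself was not measured. The sequences run 5′ to 3′ on the strand of the gene, with the κB matches in capitals.
NFKBIA, chr14:35404750-35404999, minus strand: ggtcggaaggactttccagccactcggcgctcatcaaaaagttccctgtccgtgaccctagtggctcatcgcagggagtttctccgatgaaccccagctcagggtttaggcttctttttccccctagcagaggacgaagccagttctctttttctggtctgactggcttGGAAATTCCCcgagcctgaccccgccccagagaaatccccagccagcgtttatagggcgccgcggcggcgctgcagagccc
NFKBIZ, chr3:101827740-101827989, plus strand: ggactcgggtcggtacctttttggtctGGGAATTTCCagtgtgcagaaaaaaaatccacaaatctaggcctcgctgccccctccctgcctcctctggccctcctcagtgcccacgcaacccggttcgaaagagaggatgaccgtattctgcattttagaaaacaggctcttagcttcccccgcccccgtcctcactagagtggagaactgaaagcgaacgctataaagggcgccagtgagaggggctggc
TNFAIP3, chr6:137867009-137867258, plus strand: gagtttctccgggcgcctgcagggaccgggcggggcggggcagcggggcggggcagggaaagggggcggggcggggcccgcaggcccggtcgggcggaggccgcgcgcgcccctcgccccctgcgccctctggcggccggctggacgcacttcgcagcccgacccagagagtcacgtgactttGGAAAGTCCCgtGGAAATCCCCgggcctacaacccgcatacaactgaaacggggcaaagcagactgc
BIRC3, chr11:102317234-102317483, plus strand: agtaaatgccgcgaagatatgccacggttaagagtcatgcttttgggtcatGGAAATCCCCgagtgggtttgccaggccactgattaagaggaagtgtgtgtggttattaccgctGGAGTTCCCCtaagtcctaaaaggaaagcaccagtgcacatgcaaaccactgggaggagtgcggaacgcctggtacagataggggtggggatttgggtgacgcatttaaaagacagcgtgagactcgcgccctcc

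The NFKBIA match starts 81 bases before the start and the printed NFKBIZ match 223 bases before. The second NFKBIZ window holds GGGGTTTCCC, 239 bases before its start (chr3:101849275-101849284). TNFAIP3 has a pair of matches 67 and 55 bases before its start, separated by 2 bases. BIRC3 has matches 199 and 135 bases before. NFKB1 has the same GGGAATTTCC as NFKBIZ, 49 bases before its start (chr4:102501310-102501319). The NFKB2 windows held 5 matches, the nearest of them GGGACTTTCC at 21 bases (chr10:102395684-102395693). No match was found in the windows of ICAM1 and SOD2, which says only that these letters are not in those windows. A match is a description of the sequence and not a measured binding site.

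After knockdown of MEOX2 in SNB19, NFKBIZ and SOD2 were higher and BIRC3 was lower, while the libraries overlapped for NFKBIA and TNFAIP3. Of the 10 members, 3 passed the adjusted threshold of 0.05 in the shared fit, 2 higher and 1 lower, where 15.7% of all tested genes did (6.99% higher, 8.75% lower). The median log2 fold change of the members was 0.27, against -0.0013 over all tested genes. With SNB19 fitted alone, 8 of 10 were called, 6 higher and 2 lower, against 55.9% of tested genes, and the median was 0.29. The shared fit also called 8 without EV replicate 1 and 8 without EV replicate 2, against 47.1% and 47.3% of genes. In the SNB19 fit the 8 were all members but NFKBIA and TNFAIP3, and all 8 had siMEOX2 libraries that did not overlap with Scramble, as had 57.0% of all tested genes. Change was widespread among all genes in SNB19, and the count of members is to be read against it.

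NFKBIZ (chr3:101827991-101861022) encodes IκBζ, an inducible nuclear IκB protein that acts as a co-activator of a subset of NF-κB targets. It was 34.4, 29.7 and 33.9 CPM in the Scramble libraries and 96.5, 123 and 115 CPM in the siMEOX2 libraries. Every siMEOX2 library lay far above every Scramble library. The rise was 3.41-fold (log2 fold change 1.77, SE 0.26, adjusted p = 0.0029, edgeR quasi-likelihood test), and 1.78 on the log2 scale with SNB19 fitted alone. SOD2, the mitochondrial manganese superoxide dismutase and a classical NF-κB target, was 194, 184 and 199 CPM in Scramble and 452, 594 and 554 CPM in siMEOX2. It rose 2.77-fold (log2 fold change 1.47, SE 0.20, adjusted p = 0.0021), again with no overlap between the groups.

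BIRC3 (chr11:102317450-102339403), which encodes the ubiquitin ligase cIAP2 of the TNF receptor complex, went the other way. It was 68.5, 63.4 and 71.2 CPM in Scramble and 42.0, 50.3 and 48.6 CPM in siMEOX2. All siMEOX2 libraries were lower than all Scramble libraries. The fall was 1.44-fold (log2 fold change -0.53, SE 0.13, adjusted p = 0.022, edgeR). This call did not survive the loss of any 1 of the 6 SNB19 libraries in the shared fit, with adjusted p from 0.0573 to 0.092, while in the fit of SNB19 alone its adjusted p was 5.8e-06.

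The main cytoplasmic inhibitor NFKBIA (chr14:35401511-35404749), which encodes IκBα and is the standard readout of NF-κB feedback, was 163, 172 and 165 CPM in Scramble and 172, 187 and 166 CPM in siMEOX2. The groups overlapped, with a log2 fold change of 0.07 and a 95% interval from -0.18 to 0.32. TNFAIP3 (chr6:137867188-137883312), which encodes the ubiquitin-editing brake A20, was 37.2, 35.1 and 36.8 CPM against 27.7, 41.0 and 36.9 CPM. Its interval ran from -0.68 to 0.59, and the sign of its log2 fold change of -0.05 depended on the scaling (0.05 with library sizes alone).

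The subunit genes lay higher in siMEOX2 and NFKBIE lower, but these shifts did not pass in the shared fit with TMM normalisation and the low-count filter. With library sizes alone NFKB2 and RELB passed (adjusted p of 0.037 and 0.021, edgeR), as they did with limma on FPKM, and NFKBIE passed without a filter (adjusted p = 0.04995). NFKB1 (p105/p50) was 62.8, 65.6 and 68.4 CPM in Scramble and 75.5, 86.0 and 84.8 CPM in siMEOX2. NFKB2 (p100/p52, of the alternative pathway) was 428, 423 and 398 CPM against 492, 533 and 519 CPM. RELB, the partner of p52, was 99.6, 101 and 95.4 CPM against 141, 150.5 and 140.4 CPM. None of the 3 genes had overlapping groups, with log2 fold changes of 0.32, 0.31 and 0.54 and adjusted p of 0.42, 0.17 and 0.11 (edgeR, all libraries), which became 0.0002, 1.2e-05 and 2.7e-08 with SNB19 alone. NFKBIE, which encodes the inhibitor IκBε, was 72.4, 74.7 and 68.6 CPM against 42.6, 49.5 and 43.1 CPM, a log2 fold change of -0.67 with adjusted p of 0.19 in the shared fit and 9.0e-08 in the SNB19 fit. ICAM1, an adhesion molecule for leukocytes and an NF-κB target, was 75.3, 73.6 and 71.2 CPM against 76.6, 89.1 and 94.0 CPM, with a log2 fold change of 0.24 and adjusted p of 0.56 and 0.0044 in the same order. The median coefficient of variation over the members was 3.95% in Scramble and 8.93% in siMEOX2. Over all tested genes, which include genes of lower counts, it was 7.46% and 9.28%.

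**Figure D1:**
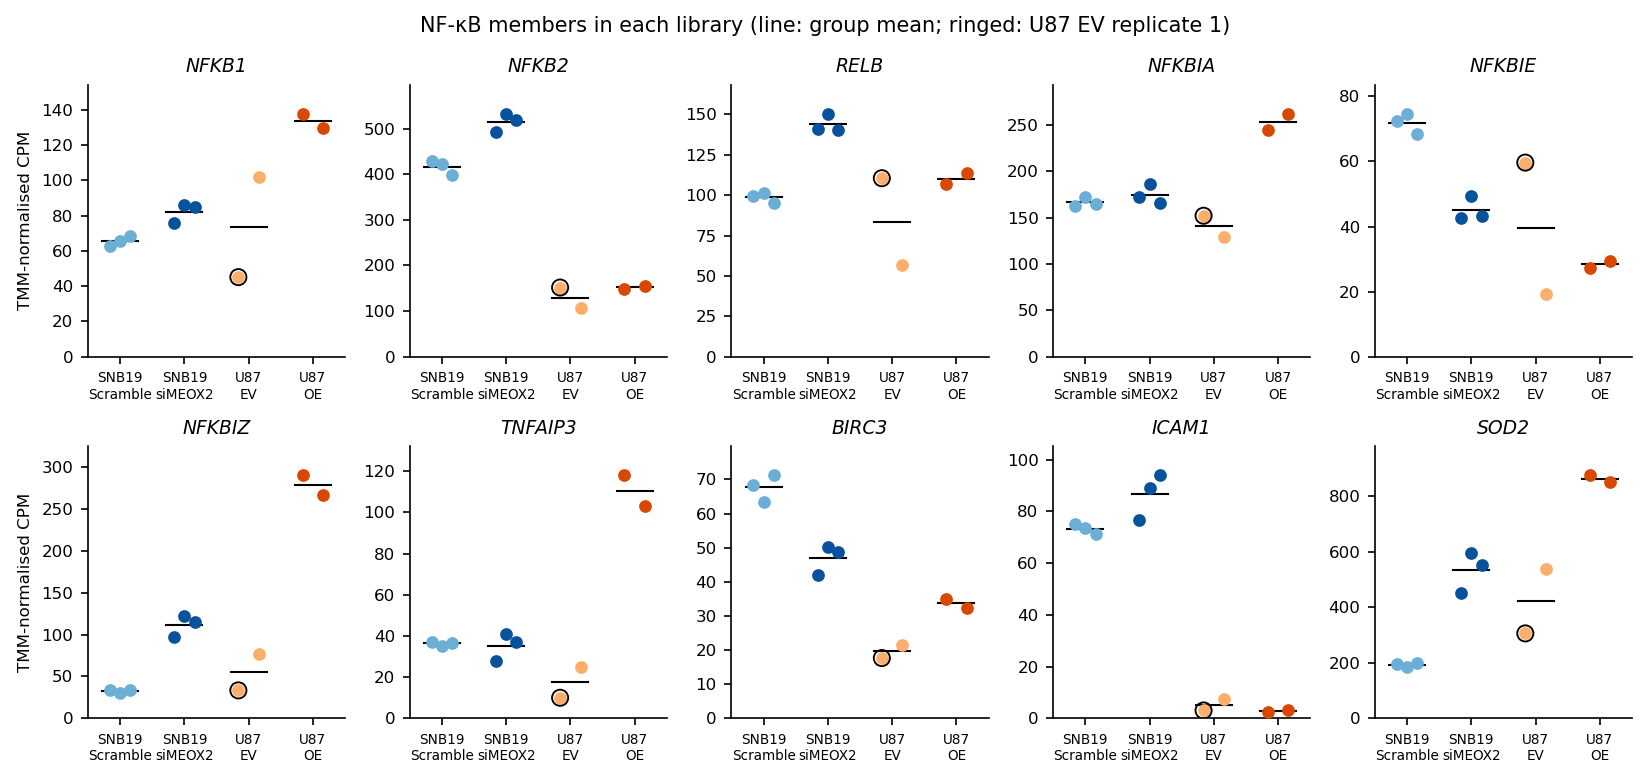
TMM-normalised CPM of the 10 members (y axes, linear and starting at 0) in every library of the 4 groups (x axes), with points for libraries, lines for group means and a ring around U87 EV replicate 1. NFKBIZ rises from about 33 to 112 CPM on average in SNB19 and from 54.9 to 279 CPM in U87, whereas TNFAIP3 is flat in SNB19 and goes from 17.6 to 111 CPM in U87.

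In U87 with MEOX2 overexpression, 5 members were higher and 0 lower past the threshold. TNFAIP3, NFKBIZ, SOD2, NFKBIA and BIRC3 were higher in OE, so 5 of 10 were called, against 26.2% of all tested genes (11.3% higher, 14.9% lower). The median log2 fold change of the members was 0.81, against -0.017 over all tested genes. Without EV replicate 1, 10 of 10 were called, 9 higher and ICAM1 lower, against 38.9% of genes (20.4% higher, 18.4% lower), and the median was 0.70. Without EV replicate 2 it was 7 of 10, 6 higher and NFKBIE lower, against 59.5%, and without OE replicate 1 it was 3, where the genes called in all were 1553 against 4538 in the fit of all libraries. With U87 fitted alone, 0 of 10 members and 0 of 14180 genes were called by edgeR, although 2643 genes had an unadjusted p under 0.05. That fit was run with edgeR only. In 6 members the OE and EV libraries did not overlap, as in 52.8% of all tested genes.

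TNFAIP3 showed the largest response among the members. It was 9.98 and 25.1 CPM in EV and 118 and 103 CPM in OE, so the lowest OE library stood well above the highest EV library. The rise was 6.27-fold (log2 fold change 2.65, SE 0.37, adjusted p = 0.0013, edgeR) and its log2 fold change was 2.18 without EV replicate 1 and 3.5 without EV replicate 2. NFKBIZ was 33.3 and 76.5 CPM in EV and 290.2 and 267 CPM in OE, a 5.07-fold rise (log2 fold change 2.34, SE 0.33, adjusted p = 0.0014) with a log2 fold change of 1.91 without EV replicate 1 and 3.09 without EV replicate 2. Both genes were lower in EV replicate 1 than in replicate 2, and rose against either library alone.

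NFKBIA was 152 and 129 CPM in EV and 245 and 262 CPM in OE. It was the member least affected by the difference between the EV libraries, which were 1.18-fold apart. The rise was 1.80-fold (log2 fold change 0.85, SE 0.14, adjusted p = 0.0026, edgeR), and 2.02-fold without EV replicate 1. BIRC3 was 17.7 and 21.6 CPM in EV and 35.0 and 32.3 CPM in OE, a 1.71-fold rise (log2 fold change 0.78, adjusted p = 0.0080) that was 1.60-fold without EV replicate 1 and missed the threshold when OE replicate 1 was left out (adjusted p = 0.065). SOD2 was 306 and 537 CPM in EV and 876 and 851 CPM in OE, a 2.05-fold rise (log2 fold change 1.03, adjusted p = 0.016) that fell to 1.66-fold without EV replicate 1 and was not called without OE replicate 1 or 2 (adjusted p of 0.087 and 0.073).

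For the remaining members the value depended on which EV library was used. NFKB1 was 45.1 and 102 CPM in EV and 138 and 129.6 CPM in OE, with a log2 fold change of 0.86 (adjusted p = 0.060, edgeR). The log2 fold change was 0.44 without EV replicate 1 and 1.60 without EV replicate 2. NFKB2 was 152 and 107 CPM against 149 and 156 CPM, and RELB was 111 and 56.7 CPM against 107 and 114 CPM. EV replicate 1 matched the OE level for both. The log2 fold changes of 0.24 and 0.40 became 0.55 and 1.00 without EV replicate 1 but 0.042 and 0.030 without EV replicate 2. NFKBIE was 59.6 and 19.3 CPM against 27.3 and 29.5 CPM, between the EV libraries, and its log2 fold change turned from -0.47 to 0.60 without EV replicate 1. ICAM1 was barely expressed, at 3.03 and 7.40 CPM in EV and 2.57 and 3.24 CPM in OE, with a log2 fold change of -0.85 (adjusted p = 0.099, edgeR). The log2 fold change was -1.29 without EV replicate 1 and -0.018 without EV replicate 2.

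**Figure D2:**
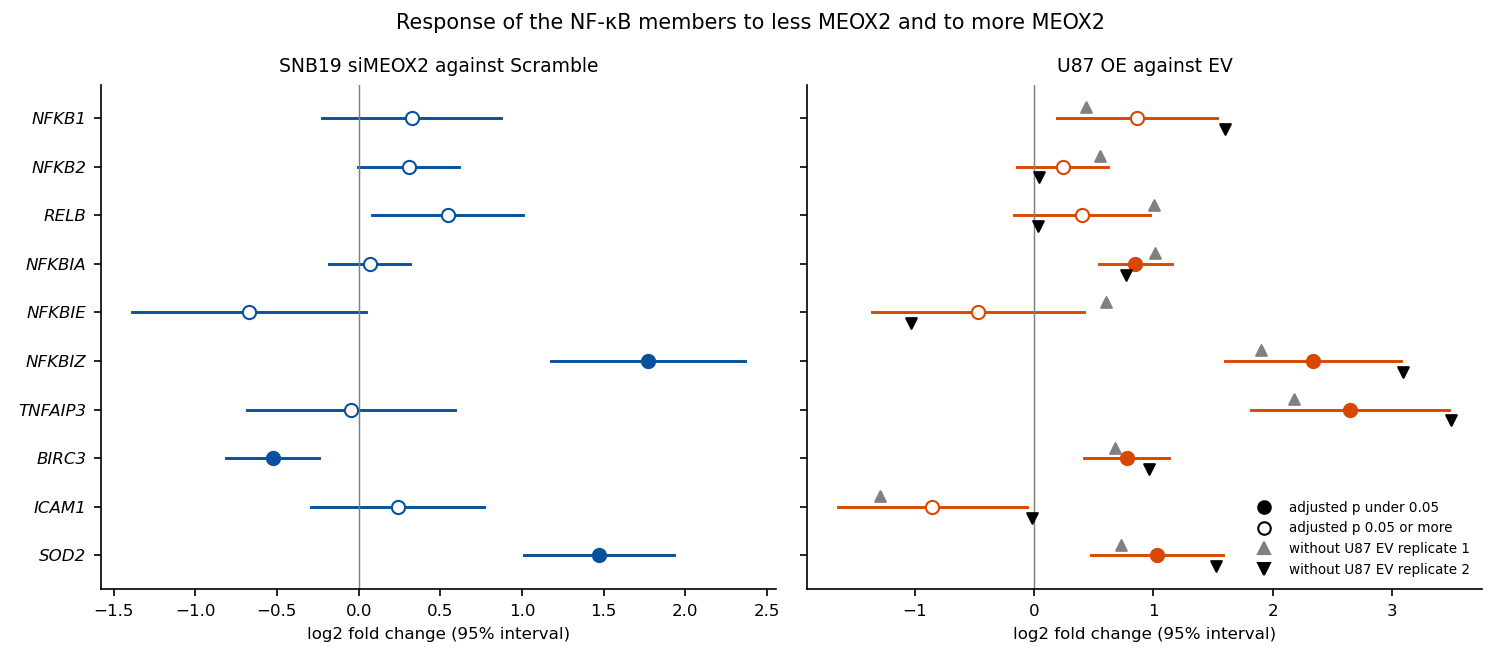
Log2 fold change (x axes, with 95% intervals) of the 10 members (y axis) for siMEOX2 against Scramble in SNB19 (left) and OE against EV in U87 (right); filled circles passed an adjusted p of 0.05 in the fit of all 10 libraries and open circles did not. Triangles in the right panel give the estimate without EV replicate 1 (up, grey) and without EV replicate 2 (down, black). These lie on opposite sides of 0 for NFKBIE only, and for NFKB2, RELB and ICAM1 the estimate without EV replicate 2 is near 0.

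MEOX2 moved in opposite directions in the 2 lines, and 2 of the 3 members called in both comparisons did not. NFKBIZ and SOD2 were higher after knockdown in SNB19 and also higher after overexpression in U87, a pattern of 321 of the 17312 tested genes (1.85%). A test of the sum of both log2 fold changes, which is 0 where responses are equal and opposite, called 4 of 10 members, all above 0, against 24.4% of tested genes (10.2% above 0). The sum was 4.11 for NFKBIZ, 2.51 for SOD2, 2.60 for TNFAIP3 and 0.92 for NFKBIA. For TNFAIP3 and NFKBIA the SNB19 part of the sum was -0.05 and 0.07. A test of the difference between the responses called 3 of 10 members, all below 0, against 15.7% of tested genes (7.33% below 0), with knockdown minus overexpression at -2.70 for TNFAIP3, -1.30 for BIRC3 and -0.78 for NFKBIA. BIRC3 was the only member called in the direction of MEOX2 in both lines, lower with less and higher with more, and neither of these calls held with the replicate number as a block (adjusted p of 0.10 and 0.051, edgeR), although the numbers do not pair the libraries. For NFKBIZ and SOD2 the difference between the responses was -0.57 (95% interval -1.48 to 0.34) and 0.44 (-0.27 to 1.15). Both moved with the EV libraries. The NFKBIZ value was -0.13 without EV replicate 1 and -1.31 without EV replicate 2, and the SOD2 value was 0.75 and -0.045. With EV replicate 1 left out the sum called 8 members and the difference called 7, against 43.0% and 35.5% of tested genes. Without EV replicate 2 these were 9 and 8, against 56.8% and 54.6%.

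The control levels of the members differed between the lines, and line, transfection and viral selection differ together there. Scramble was above EV for ICAM1 (13.9-fold, log2 fold change 3.80), BIRC3 (3.44-fold), NFKB2 (3.22-fold) and TNFAIP3 (2.06-fold), and below it for SOD2 (2.19-fold) and NFKBIZ (1.68-fold). ICAM1 was 9.86-fold higher without EV replicate 1 and 23.7-fold without EV replicate 2, and TNFAIP3 1.44-fold and 3.57-fold. NFKBIZ was 2.35-fold lower without EV replicate 1 and 1.04-fold lower without EV replicate 2. The main values are those of 6 of 10 members called by edgeR, against 56.9% of all tested genes (28.1% higher, 28.8% lower), so members differed about as often as any gene. The NFKBIZ call was close to the threshold (adjusted p = 0.047) and was lost without any 1 library other than EV replicate 1. Without EV replicate 1, 10 of 10 were called, 7 higher and 3 lower, against 63.4%, and without EV replicate 2 it was 8, against 73.7%. The order of the 4 groups was OE, siMEOX2, EV and Scramble for NFKBIZ, for NFKB1 and for SOD2, with EV overlapping Scramble for the first pair of genes and siMEOX2 for NFKB1 and SOD2. NFKB2 and ICAM1 ran siMEOX2 and Scramble first, both above U87, and BIRC3 had 4 groups that did not overlap at all, from Scramble through siMEOX2 and OE to EV.

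Levels can be compared between genes only per length. In the deposited FPKM, NFKB2 was the most abundant member in SNB19, at 97.7 ± 3.02 FPKM in Scramble and 128.5 ± 7.11 FPKM in siMEOX2 (SD, n = 3). NFKBIA followed it in Scramble at 73.9 ± 2.28 FPKM. In U87 OE the order was turned, with NFKBIA at 102 ± 3.90 FPKM and NFKB2 at 32.5 ± 0.697 FPKM (SD, n = 2). NFKBIZ was the least abundant member in Scramble, at 5.82 ± 0.464 FPKM, and reached 45.1 ± 3.14 FPKM in OE. These FPKM are not TMM-scaled, and FPKM in EV carry the length difference described above.

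Over the 10 libraries, in log2 CPM centred on each line, NFKB2 and RELB had the closest profiles of any 2 members (Pearson r = 0.99), followed by NFKBIZ and SOD2 (r = 0.96). NFKBIE ran against NFKB1 (r = -0.77) and SOD2 (r = -0.75). The genes with profiles most like NFKBIA were AL355103.1 (r = 0.99), YTHDF2 (0.99), TSC22D1 (0.99), NIP7 (0.98) and LTO1 (0.98). AL355103.1 averaged 0 CPM in Scramble and 0.0206 CPM in siMEOX2. It was 0.253 CPM in EV and 1.57 CPM in OE, so its profile rests on low counts in U87. YTHDF2, a reader of methylated mRNA, was 123 CPM in Scramble, 124 in siMEOX2, 115 in EV and 171 in OE. These values share libraries and the EV spread and are given as a description.

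The other genes of the pathway were taken from 7 lists with 108 genes. Their counts in the shared fit are to be read against 6.99% of all tested genes higher and 8.75% lower in SNB19, and 11.3% higher and 14.9% lower in U87. Among the ligands, the interleukin-1 genes stood out. IL1A was 4.10, 3.26 and 3.70 CPM in Scramble and 26.03, 34.0 and 38.9 CPM in siMEOX2, an 8.90-fold rise (adjusted p = 0.00013, edgeR). In U87 it was 5.08 and 2.77 CPM in EV and 89.8 and 93.9 CPM in OE, a 23.6-fold rise. IL1B, in contrast, was 10.3, 10.2 and 10.6 CPM in Scramble and 4.17, 6.54 and 7.52 CPM in siMEOX2, a 1.71-fold fall (adjusted p = 0.028). In U87 the same gene was 19.5 and 18.5 CPM in EV and 1388 and 1582 CPM in OE, 78.0-fold higher. IL1A thus rose in both lines and IL1B moved in opposite directions. Of 7 ligand genes tested, 1 was higher and 1 lower in SNB19, and 3 were higher and 1 lower in U87. TNF itself was at most 2.34 CPM in any library.

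Chemokine targets had 3 of 10 tested genes higher and 2 lower in SNB19, and 5 higher and 1 lower in U87. CXCL8, the neutrophil attractant interleukin-8, was 5.08, 4.78 and 7.17 CPM in Scramble and 20.6, 33.7 and 32.0 CPM in siMEOX2, a 5.06-fold rise. In U87 it was 133 and 133 CPM in EV and 2495 and 2728 CPM in OE, a 19.6-fold rise. CCL20 rose 15.8-fold in SNB19 and 5.84-fold in U87, where its level stayed at or under 2.74 CPM. CXCL2 rose 4.80-fold and 6.28-fold. In U87, CXCL3 was 16.5 and 21.2 CPM in EV and 68.0 and 76.6 CPM in OE, and CXCL5 was 5.26 and 7.40 CPM against 33.5 and 31.9 CPM, both called higher. CCL5 fell 5.47-fold in SNB19, from 2.25 to 0.399 CPM on average. The one chemokine called lower in U87, CCL2, was at most 0.357 CPM and was not called without EV replicate 1. The ligands TNFSF10 and TNFSF15, called lower and higher in U87, were likewise at most 0.598 CPM, and these 3 genes were named after their values were seen.

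Of 24 tested targets that are not chemokines, 3 were higher and 4 lower in SNB19, and 6 were higher and 7 lower in U87, so that the list had no common direction (medians -0.18 and 0.01). Among them IL6 was 3.93, 2.29 and 2.43 CPM in Scramble and 16.3, 23.8 and 23.1 CPM in siMEOX2, 7.25-fold higher. It was 33.9 and 16.5 CPM in EV and 60.5 and 71.3 CPM in OE, 2.62-fold higher. PTGS2, the inducible cyclooxygenase, had at most 1 read in any SNB19 library and rose 25.1-fold in U87, from 8.47 and 17.3 CPM to 340.1 and 308 CPM. IER3, an early response gene, rose in both lines (1.56-fold and 2.62-fold). TNFAIP2 fell in both, 2.26-fold and 9.33-fold, and the matrix protease MMP9 fell 9.30-fold in SNB19. SDC4, given by level only, averaged 38.4 CPM in Scramble and 122 CPM in siMEOX2, but 237 CPM in EV and 127 CPM in OE.

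**Figure D3:**
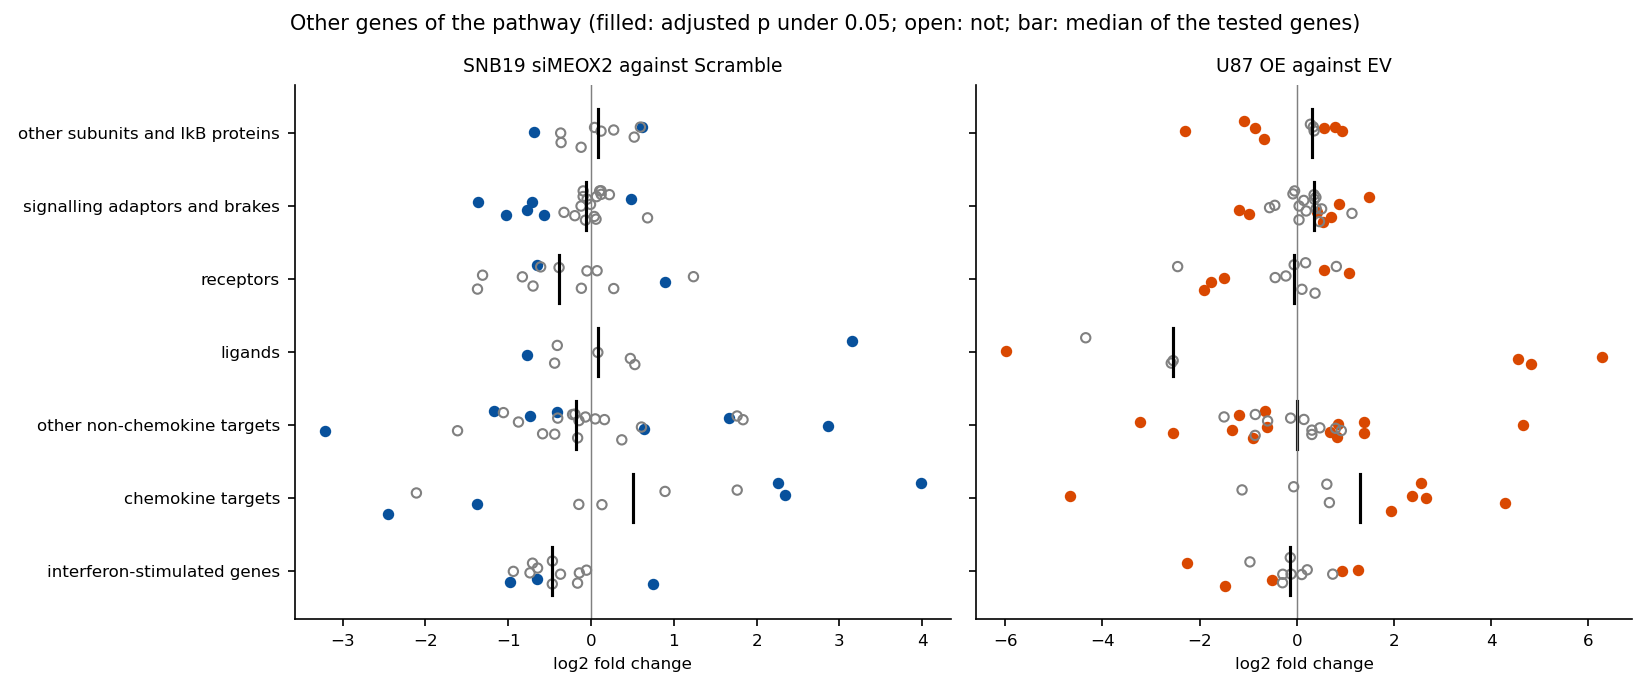
Log2 fold change (x axes) of the tested genes of 7 pathway lists (y axis) in SNB19 (left) and U87 (right), with filled points for an adjusted p under 0.05, open points for the others and bars for list medians; points are spread vertically for legibility only. The largest rises are CCL20 and IL1A in SNB19 and IL1B in U87, and the list of targets that are not chemokines spreads to both sides of 0.

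Of 10 other subunit, IκB and kinase genes, 1 was higher and 1 lower in SNB19 and 3 were higher and 4 lower in U87. RELA, the main transactivating subunit, had log2 fold changes of -0.12 in SNB19 and 0.28 in U87 (adjusted p of 0.45 and 0.098, edgeR). BCL3, a nuclear IκB protein that binds p50 and p52, rose 1.53-fold in SNB19 and fell 2.13-fold in U87. IKBKE, a non-canonical IκB kinase, fell in both, 1.61-fold and 4.89-fold. Of 22 adaptors and brakes, 1 was higher and 5 lower in SNB19, among them TRAF1 (2.57-fold), MYD88 (2.04-fold) and RIPK1 (1.71-fold), and 5 were higher and 2 lower in U87, among them IRAK2 (2.81-fold higher) and the deubiquitinase CYLD (1.83-fold higher). Of 13 receptors, 1 was higher and 1 lower in SNB19 and 2 were higher and 3 lower in U87. TNFRSF1A, the main TNF receptor, fell 3.41-fold in U87 and TNFRSF1B rose 2.12-fold.

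Interferon-stimulated genes were included as a neighbouring response. Of 13, 1 was higher and 2 lower in SNB19, and 2 were higher and 3 lower in U87, with median log2 fold changes of -0.47 and -0.13. IFIT2 fell 1.57-fold in SNB19 (adjusted p = 0.049, edgeR) and rose 1.89-fold in U87. By level only, IFIT3 averaged 17.1 CPM in Scramble, 12.4 CPM in siMEOX2, 29.3 CPM in EV and 70.4 CPM in OE. IFI6 averaged 75.8, 46.4, 55.7 and 11.6 CPM in the same order. Its EV libraries were far apart, at 87.5 and 24.0 CPM, against 11.4 and 11.7 CPM in OE. With SNB19 fitted alone, where 27.4% of all tested genes were higher and 28.5% lower, 1 of 12 interferon-stimulated genes was higher and 8 lower. In the same fit the numbers higher and lower were 7 and 10 of 22 for the other targets, 3 and 2 of 7 for the chemokines, 2 and 2 of 7 for the ligands and 2 and 5 of 9 for the receptors. They were 4 and 6 of 22 for the adaptors and brakes and 3 and 3 of 10 for the other subunit, IκB and kinase genes. Apart from CCL2 and TNFSF15, which lost their calls without EV replicate 1, every gene named from the lists as changed in U87 was called in the same direction without EV replicate 1 and, with TNFSF15 not called there either, without EV replicate 2. Without EV replicate 1 the rise was 34.1-fold for IL1A, 82.5-fold for IL1B, 20.2-fold for CXCL8 and 19.3-fold for PTGS2, which was 39.1-fold without EV replicate 2. The log2 fold change of IL6 went from 1.39 to 2.04 without EV replicate 1, that of TNFRSF1A from -1.77 to -1.18, and that of IRAK2 from 1.49 to 2.15 without EV replicate 2. In the fit of U87 alone no listed gene was called. With EV replicate 1 left out, 20.4% of all tested genes were higher and 18.4% lower in U87. The numbers higher and lower were then 3 and 3 of 13 for the interferon-stimulated genes, 6 and 0 of 10 for the chemokines, 11 and 7 of 24 for the other targets and 10 and 2 of 22 for the adaptors and brakes. They were 3 and 4 of 13 for the receptors, 2 and 1 of 7 for the ligands and 4 and 3 of 10 for the other subunit, IκB and kinase genes.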

How the data were processed

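RNA from 6 SNB19 and 4 U87 libraries had been extracted with TRIzol and sequenced by the authors' service provider from poly(A) libraries. The submitters' processing notes name HISAT2, HTSeq 0.11.2, DESeq2 1.26.0 and GRCh38. The authors deposited one table of raw gene counts and of FPKM for the same libraries. The FPKM are the counts divided by a gene length and a library constant, so a length is implied for each gene. Whether strand was used in counting is not given in the sources used here, so reads of antisense partners cannot be told apart. The treatment labels of the U87 libraries carry rising numbers after MEOX, so groups were taken from the titles.

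Counts were fitted in R 4.3.3 with edgeR 4.0.16 (filterByExpr with a minimum of 10 counts, TMM, glmQLFit and glmQLFTest, 6 residual degrees of freedom) over all 10 libraries, with 5 contrasts and Benjamini-Hochberg adjustment over 17312 genes at 0.05. The scripts were tested on simulated data. Depth was 12533775 to 16560324 counts per library, and intervals and floors cover counting error or the spread between libraries only. FPKM were used for levels and, as log2(FPKM + 1), in a limma 3.58.1 alternative. Other alternatives were DESeq2 1.42.0, RLE factors, library sizes alone, other filters, a fit per line, a replicate block, the rule of unadjusted p under 0.05 with a log2 fold change over 1, and leaving out each library. The members, the pathway lists and the marker lists were chosen with earlier results of these data known. Named genes were the members, MEOX2, up to 6 called genes per list and comparison by size of change with at least 10 counts on average in the higher group, and the 5 genes most correlated with NFKBIA. Values given for RELA, TNF and the marker genes are outside that rule. These values and the levels of SDC4, IFIT3 and IFI6 were chosen after they were seen.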

Additional observations from a re-analysis of the deposited data

Results flagged for a closer look

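The responses to less MEOX2 in SNB19 and to more MEOX2 in U87 differed for 3 members by the interaction contrast of the edgeR fit. MEOX2 itself moved in opposite directions, so a gene that follows MEOX2 in both lines also differs by this contrast. The log2 fold changes in SNB19 and U87 were 0.07 and 0.85 for NFKBIA, -0.05 and 2.65 for TNFAIP3 and -0.53 and 0.78 for BIRC3. Knockdown minus overexpression was -0.78 on the log2 scale for NFKBIA (adjusted p = 0.019), -2.70 for TNFAIP3 (adjusted p = 0.0062) and -1.30 for BIRC3 (adjusted p = 0.0042). Without EV replicate 1 these were -0.94, -2.22 and -1.20, and without EV replicate 2 they were -0.69, -3.54 and -1.48. The NFKBIA difference missed the threshold in 7 of the 10 fits that left out 1 library, with adjusted p up to 0.091.

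The same responses added together departed from 0, the value of equal and opposite responses, for 4 members. The sum was 0.92 for NFKBIA (adjusted p = 0.0056, edgeR), 4.11 for NFKBIZ (adjusted p = 0.00025), 2.60 for TNFAIP3 (adjusted p = 0.0037) and 2.51 for SOD2 (adjusted p = 0.00075). Without EV replicate 1 these were 1.09, 3.68, 2.13 and 2.20, and without EV replicate 2 they were 0.85, 4.87, 3.46 and 3.01. Line, kind of perturbation and direction of the MEOX2 change differ together and cannot be told apart.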

How the results depend on the processing

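SNB19 siMEOX2 against Scramble called 2725 genes and 3 members. A fit per cell line called 8683 genes and 8 members, the replicate block 972 genes and the block with the U87 numbers crossed (added after seeing the data) 1786. Leaving out 1 library gave 1148 to 8700 genes and 2 to 8 members. The log2 fold change of TNFAIP3 turned to 0.046 with library sizes alone and to 0.024 with limma on log2(FPKM + 1), and ran from -0.17 to 0.10 with 1 library left out. BIRC3 lost its call with the replicate block (also in U87), without a filter, with library sizes alone and with limma, and the NFKBIA difference between the responses with the block and without a filter. U87 OE against EV called 4538 genes and 5 members, against 0 and 0 in a fit of U87 alone, 2126 genes under the replicate block, and 3 members (3963 genes of 17312) at an unadjusted p under 0.05 with a 2-fold change. Calls were also gained in U87, by NFKB2 and RELB with library sizes alone and with limma, by NFKB1 with DESeq2, without a filter and with the crossed block, and by ICAM1 without a filter. Leaving out 1 library gave 1553 to 10929 genes and 3 to 10 members, and NFKBIE ran from -1.04 to 0.60, above 0 without EV replicate 1. Scramble against EV called 9843 genes and 6 members, and 8219 to 13539 genes and 4 to 10 members when 1 library was left out. There NFKB1 turned from -0.16 to 0.11 with library sizes alone, and to 0.27 with limma, and ran from -0.64 to 0.51 with 1 library left out, while RELB ran from -0.19 to 0.79, both turned by EV replicate 2. The difference of the responses called 2716 genes, 698 with the block, 1613 with the crossed block and 1018 to 10034 with 1 library left out (2 to 8 members), and its SOD2 value ran from -0.045 without EV replicate 2 to 0.75 without EV replicate 1. The sum called 4229 genes and 4 members, 2215 genes with the block, 7 members each with DESeq2 (5485 genes), without a filter (4835) and with limma (5043), and 2265 to 10435 genes and 4 to 9 members with 1 library left out.

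Same-numbered SNB19 libraries did not deviate together (r of 0.04, 0.00 and 0.06) and U87 ones deviated apart (r = -0.16), so the numbers are not taken as pairs. Library sizes alone moved the median of all genes by 0.16 in U87 and 0.35 between the lines, and the share of calls that were higher from 44.4% to 57.0% in SNB19, from 43.0% to 53.3% in U87 from 49.4% to 64.5% between the lines and from 41.9% to 56.9% for the sum. With limma on FPKM these shares were 59.8%, 61.5%, 67.8% and 63.7%. Low counts limit ICAM1 in U87.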
